A study of Mus musculus with 6 samples.

Results

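The 10 genes described here belong to the tight junction membrane and were followed across the 6 arrays of a study of oval cells, the ductal progenitor cells that appear in injured liver. They are the claudins Cldn1, Cldn2, Cldn3, Cldn4, Cldn6, Cldn7, Cldn8 and Cldn12, the occludin gene Ocln, and F11r, which encodes junctional adhesion molecule A. Members were chosen by gene symbol: the platform annotation gave 12 probes for these 10 genes, out of 45281 probes and 19057 symbols on the array. Cldn2 and Cldn8 had 2 probes each and the other genes 1. In all, 10 of the 12 probes, for 9 genes, had a signal above background on some array.

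Every array held total RNA of 1 condition, with no replicate of any condition. EpCAM+ cells, sorted from the non-parenchymal fraction of the liver with an antibody to the epithelial cell adhesion molecule, came from DDB1F/F;Alb-Cre+/+ mice at 4 weeks, DDB1F/F;Alb-Cre+/- mice at 6 weeks, DDB1F/F;Mx1-Cre+/- mice, and mice on a diet with the porphyrinogenic chemical DDC. Hepatocytes, the cells that sediment at low speed after liver perfusion, came from DDB1F/F;Alb-Cre+/+ mice and from wild type mice. DDB1F/F mice carry floxed alleles of Ddb1, an adaptor subunit of the CUL4 ubiquitin ligase. Alb-Cre acts under the albumin promoter in hepatocytes and in cells of their lineage, while Mx1-Cre is induced by poly(I:C) in liver and in other tissues, and the study describes its Mx1-Cre mice as adult. DDC injures the bile ducts and was fed to wild type mice, so neither the DDC array nor the wild type hepatocyte array carries the deletion. All arrays share a mixed C57BL/6 x 129 background. The labels give no age for the Mx1-Cre, DDC and hepatocyte arrays, so genotype, age and individual mouse cannot be told apart in any comparison of 2 arrays. The labels name the tissue as mammary, whereas the protocols describe liver cells, and the arrays were read as liver.

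Tight junctions seal the space between neighbouring epithelial cells. Claudins span the membrane several times and pair across that space: some tighten the barrier, and others form pores for small ions. In liver these junctions separate bile from blood, both along the canaliculi between hepatocytes and between the cholangiocytes that line bile ducts.

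Signals below are the normalized probe intensities on a linear scale, and a signal was called above background where its detection p, against the negative control beads of the array, was under 0.05. Between 11429 probes (wild type hepatocytes) and 17152 probes (DDC) were above background. The standard error over beads of the member probes was 4.45% to 10.19% of the signal, and it covers bead error only. The fractions were read against marker lists. The summed signal of 7 cholangiocyte markers was 35590 to 58860 in the 4 EpCAM+ arrays, against 6881 in Alb-Cre+/+ hepatocytes and 1303 in wild type hepatocytes. The summed signal of 12 hepatocyte markers was 20150 to 62140 in EpCAM+ arrays, against 192100 and 274900 in the mutant and wild type hepatocytes. Most of that sum in each EpCAM+ array was Ttr, which read 14740 to 46560 there, against 51180 and 56590 in the hepatocytes. In the Alb-Cre+/+ hepatocytes 6 of the 7 cholangiocyte markers were above background (Krt19 and Krt7 among them), whereas in wild type hepatocytes 1 was. Epcam itself was weak at its probe, with 125.6, 161.9 and 176.6 in Alb-Cre+/+, Mx1-Cre and DDC EpCAM+ cells and no signal above background in Alb-Cre+/- EpCAM+ cells or in either hepatocyte array. Ddb1 read 259.2, 205.1, 275.8 and 317.5 in Alb-Cre+/+, Alb-Cre+/-, Mx1-Cre and DDC EpCAM+ cells, against 169.0 in Alb-Cre+/+ hepatocytes and 499.2 in wild type hepatocytes. The position of this probe relative to the deleted part of the gene was not known here.

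Promoter sequence is shown for the 3 genes with the largest increases in EpCAM+ cells, Cldn4, Cldn6 and Cldn7, and for Cldn1, the gene called lower there. Each run is the 250 bases before the RefSeq start (GRCm38.p6), 5′ to 3′ on the strand of the gene. Capitals mark CAGGTG or its reverse complement CACCTG, the E-box that Snail and Zeb repressors of epithelial genes bind.
Cldn4 (chr5:134946935-134947184, - strand): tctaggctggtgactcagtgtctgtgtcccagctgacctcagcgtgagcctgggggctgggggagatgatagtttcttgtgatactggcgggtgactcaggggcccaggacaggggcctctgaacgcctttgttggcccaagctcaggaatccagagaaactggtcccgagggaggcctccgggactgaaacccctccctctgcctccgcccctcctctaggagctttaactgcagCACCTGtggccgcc
Cldn6 (chr17:23679115-23679364, + strand): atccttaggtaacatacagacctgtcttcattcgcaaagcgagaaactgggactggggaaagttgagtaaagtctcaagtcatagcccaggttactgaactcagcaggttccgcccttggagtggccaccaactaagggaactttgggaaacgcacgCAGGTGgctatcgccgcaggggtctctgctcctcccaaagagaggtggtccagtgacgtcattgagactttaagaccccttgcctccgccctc
Cldn7 (chr11:69965171-69965420, + strand): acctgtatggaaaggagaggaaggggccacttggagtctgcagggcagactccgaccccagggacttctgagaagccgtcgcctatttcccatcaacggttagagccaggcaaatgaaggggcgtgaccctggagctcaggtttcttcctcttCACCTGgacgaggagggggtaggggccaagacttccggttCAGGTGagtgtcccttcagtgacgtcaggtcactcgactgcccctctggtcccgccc
Cldn1 (chr16:26371840-26372089, - strand): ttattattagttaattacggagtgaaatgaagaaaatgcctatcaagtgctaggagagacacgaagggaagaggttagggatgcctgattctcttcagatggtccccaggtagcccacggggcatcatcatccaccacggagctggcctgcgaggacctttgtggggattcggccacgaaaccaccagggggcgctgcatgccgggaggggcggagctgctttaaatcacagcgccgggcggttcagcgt
RefSeq promoters were matched by symbol for 9 of the 10 genes, Cldn8 being the exception. The 9 genes have 13 promoters in the table, since some have several starts. The E-box was found in 5 of the 13 promoters (1 each of Cldn4, Cldn6, Cldn7, F11r and Ocln) and in 17.2% of all 32851 promoters of the same length. For Cldn7, which has 2 annotated starts, the promoter shown is the one with the motif. Motifs of 15 other kinds were searched on both strands. Among them GGGCGG, an Sp factor motif, was in 10 of the 13 promoters and in 32.7% of all. The grainyhead-like motif AACCGGTT was in 0 of the 13 and in 0.116% of all, whereas its shorter core ACCNGTT was in 2 of the 13, of Cldn4 and Cldn7, and in 6.97% of all. A match is a description of the letters only, and the motif in capitals was picked after the promoters had been searched.

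The sealing claudins Cldn4 and Cldn3 gave higher signals on every EpCAM+ array than on either hepatocyte array. Cldn4, a barrier claudin of ductal and glandular epithelia and a receptor for an enterotoxin of Clostridium perfringens, read 4031, 5566, 2440 and 14119 in Alb-Cre+/+, Alb-Cre+/-, Mx1-Cre and DDC EpCAM+ cells. In hepatocytes it read 753 on the Alb-Cre+/+ array and was not above background (93.6) on the wild type array. DDC was the highest array of the 6, and the mutant hepatocytes lay between the EpCAM+ arrays and the wild type hepatocytes. Cldn3, a sealing claudin and an enterotoxin receptor as well, read 7537, 6315, 6393 and 8545 in the same EpCAM+ order. Its hepatocyte signals were 1867 in Alb-Cre+/+ and 2942 in wild type. Cldn3 was above background in both fractions and its EpCAM+ arrays lay within 1.35-fold of each other, whereas those of Cldn4 spanned 5.79-fold.

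Cldn6 and Cldn7 were likewise higher on every EpCAM+ array than on either hepatocyte array. Cldn6, best known from embryonic and fetal epithelia, read 3932, 2696, 1930 and 3309 in Alb-Cre+/+, Alb-Cre+/-, Mx1-Cre and DDC EpCAM+ cells, against 289 in Alb-Cre+/+ hepatocytes and a signal not above background (88.2) in wild type hepatocytes. Cldn7, a claudin of the lateral membrane that binds EpCAM, read 853, 632, 785 and 414 in these EpCAM+ cells, against 212 in Alb-Cre+/+ hepatocytes and 117 in wild type hepatocytes, the last not above background. For both genes the fractions did not overlap, and the DDC array was the lowest of the EpCAM+ arrays for Cldn7 but second highest for Cldn6.

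Cldn2, which forms a pore for cations and water, was read by 2 probes that gave the same order of arrays. At its brighter probe it read 7779, 5536, 5969 and 9392 in Alb-Cre+/+, Alb-Cre+/-, Mx1-Cre and DDC EpCAM+ cells, against 2340 in Alb-Cre+/+ and 1768 in wild type hepatocytes. At the other probe it read 4597, 3192, 3242 and 5127 in EpCAM+ cells, against 1465 and 844 in the mutant and wild type hepatocytes. Cldn2 was therefore above background in hepatocytes as well, at a lower signal. F11r, the immunoglobulin-like adhesion molecule JAM-A, followed the same split, with 1909, 2081, 2921 and 3819 in EpCAM+ cells, against 747 and 775 in Alb-Cre+/+ and wild type hepatocytes.

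Cldn1 ran the other way. This claudin, a barrier protein that in human hepatocytes also serves hepatitis C virus entry, was not above background in Alb-Cre+/+, Mx1-Cre and DDC EpCAM+ cells (96.8, 99.2 and 99.9) and barely above it in Alb-Cre+/- EpCAM+ cells (119). It read 522 in Alb-Cre+/+ hepatocytes and 274 in wild type hepatocytes, so the fractions did not overlap. Cldn12, a claudin that lacks the usual tail for binding scaffold proteins, was above background on every array, with 2761, 3513, 3088 and 4395 in EpCAM+ cells and 3926 and 4306 in the mutant and wild type hepatocytes. Its fractions overlapped, since DDC lay above both hepatocyte arrays and the 3 mutant EpCAM+ arrays below them.

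Ocln, which encodes a membrane protein of the junction strands outside the claudin family, read 275, 330.0, 598 and 313 in Alb-Cre+/+, Alb-Cre+/-, Mx1-Cre and DDC EpCAM+ cells, against 259 in Alb-Cre+/+ hepatocytes and 111, not above background, in wild type hepatocytes. The Mx1-Cre array stood highest, while Alb-Cre+/+ EpCAM+ cells and hepatocytes of the same genotype were within 1.06-fold. Cldn8, known from distal kidney tubules, was not above background on any of the 6 arrays at either of its probes (77.7 to 113), and no fold is given for it. Levels of different genes were not ranked, since probes differ in brightness.

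**Figure D1:**
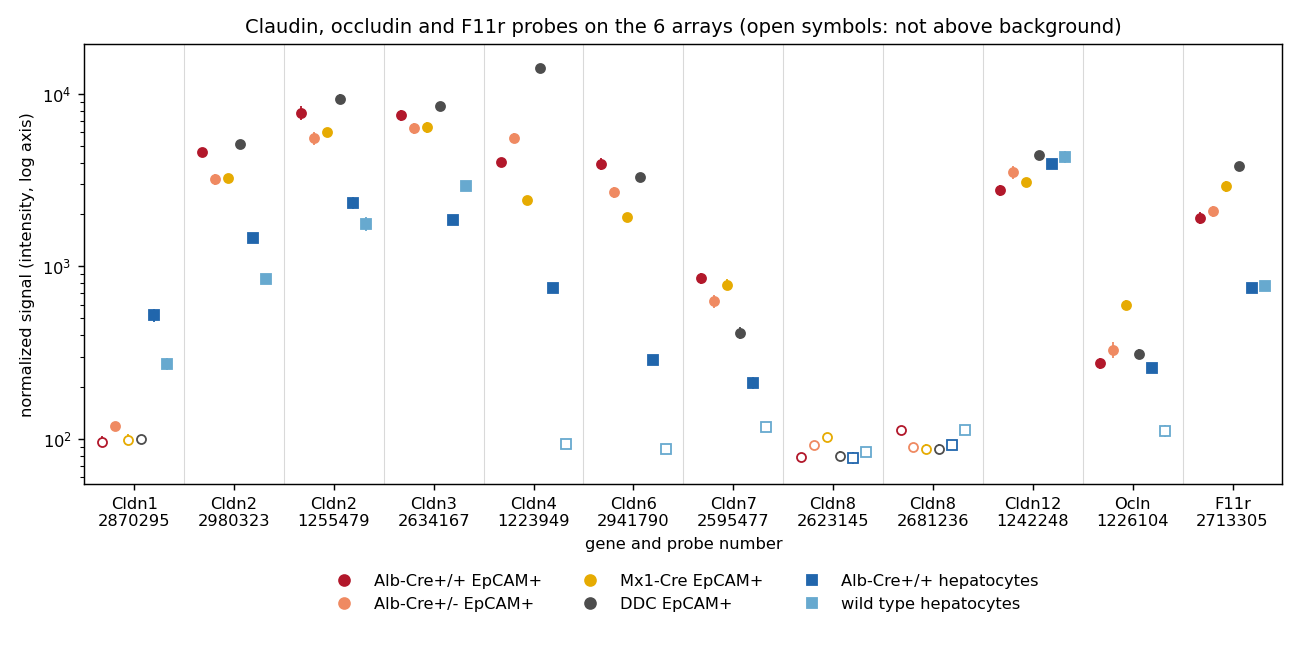
Normalized signal (log axis) of the 12 member probes on the 6 arrays, 1 point per array with its standard error over beads; circles are EpCAM+ cells, squares hepatocytes, and open symbols are not above background. Cldn4, Cldn6 and Cldn7 are open in wild type hepatocytes, Cldn1 is open in 3 of the 4 EpCAM+ arrays, and Cldn8 is open throughout.

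The cell fractions were compared with limma, the 4 EpCAM+ arrays over the 2 hepatocyte arrays, on log2 signals raised to a common floor of 114.8. The arrays within a fraction are different models, so the p-values measure the spread between models and not between replicates. Among 13740 probes above background on every array of at least 1 fraction, 10.1% were called higher in EpCAM+ cells and 10.7% lower, at a Benjamini-Hochberg adjusted p under 0.05. Of the members, 7 of the 10 member probes tested, for 6 genes, were called higher, and 1 was called lower. Cldn4, Cldn6, Cldn7 and Ocln entered the test through the EpCAM+ arrays alone and Cldn1 through the hepatocyte arrays alone, so their counts are no support by themselves; the probes of Cldn2, Cldn3, Cldn12 and F11r were above background on every array. The median log2 difference of the 10 probes was 1.77, beside 0.04 over all probes tested. That median includes the probes that entered through 1 fraction alone and both Cldn2 probes, so it is no support by itself either.

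Cldn4 was higher in EpCAM+ cells by 4.16 on the log2 scale (95% interval 2.27 to 6.05, limma adjusted p = 0.0097) and Cldn6 by 3.98 (2.95 to 5.00, adjusted p = 0.00077). Mean log2 signals of Cldn4 were 12.36 ± 1.07 (SD, n = 4) in EpCAM+ arrays and 8.20 ± 1.92 (SD, n = 2) in hepatocyte arrays, and those of Cldn6 were 11.49 ± 0.44 and 7.51 ± 0.94. Cldn4 thus had the wider spread in both fractions and Cldn6 the smaller p. Cldn7 was higher by 2.04 (1.05 to 3.03, adjusted p = 0.013). These 3 genes were not above background in wild type hepatocytes, so their differences rest in part on a signal within background. The floor replaced the wild type signals of Cldn4 (93.6) and Cldn6 (88.2), and also that of Ocln (111.1). It left that of Cldn7 (116.8) as it was. The common floor of 114.8 lies below the dimmest probe above background in wild type hepatocytes (159.2). With 159.2 in its place the differences would be smaller.

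Of the genes measured on every array, Cldn2 was higher by 1.79 and 1.83 at its 2 probes (adjusted p = 0.0051 and 0.0079), F11r by 1.76 (0.97 to 2.56, adjusted p = 0.0095) and Cldn3 by 1.61 (0.95 to 2.26, adjusted p = 0.0063). These 4 probes moved by similar amounts. Cldn1 fell by 1.71 on the log2 scale (interval -2.33 to -1.09, adjusted p = 0.0038). Its signals in Alb-Cre+/+, Mx1-Cre and DDC EpCAM+ cells (96.8, 99.2 and 99.9) were not above background and were raised to the common floor. The SD of Cldn1 over the EpCAM+ arrays was then 0.03, so its interval and p rest in part on the floor. Cldn12 did not pass the test, with a difference of -0.28 and an interval of -0.92 to 0.36 that allows a change of either sign (adjusted p = 0.49). Ocln had a difference of 1.06 (0.02 to 2.11) and an adjusted p of 0.13. Without the wild type hepatocyte array, Cldn3 and Cldn6 were the 2 probes still called higher. The difference was then 2.81 for Cldn4 (adjusted p = 0.2) and 1.61 for Cldn7 (0.14), both smaller than before, while it was 1.79 for F11r (adjusted p = 0.099) and 1.58 and 1.43 for the probes of Cldn2 (0.073 and 0.09). Without the Alb-Cre+/+ hepatocyte array F11r was no longer called, with a difference of 1.74. Cldn1 was called lower under every array left out. EpCAM+ signals at the floor stayed in each of those fits, so these Cldn1 calls are no support by themselves.

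**Figure D2:**
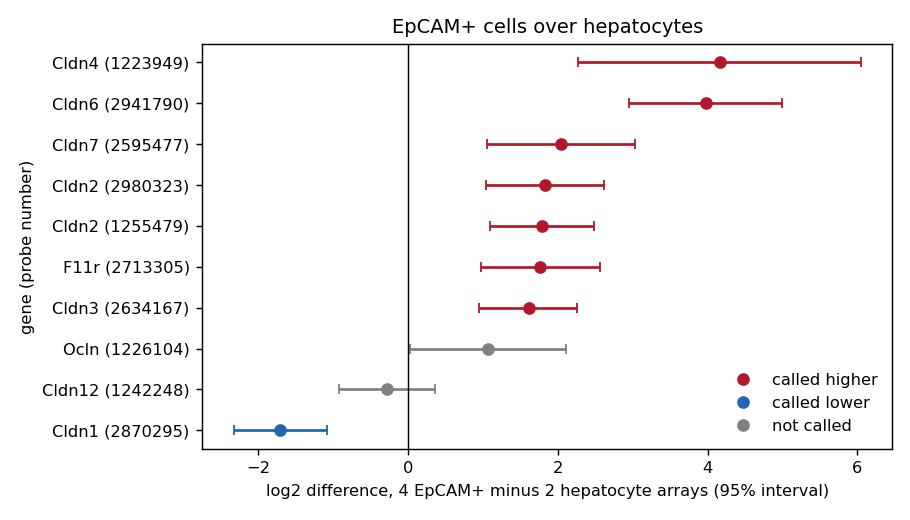
Log2 difference of the 4 EpCAM+ arrays minus the 2 hepatocyte arrays for the 10 member probes tested, with the 95% interval from limma; red is called higher, blue lower and grey not called. Cldn4 and Cldn6 lie near 4, the other called genes between 1.61 and 2.04, and Cldn1 at -1.71.

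Each EpCAM+ array was also set against the wild type hepatocytes alone, as a fold without a test. Where a signal was not above background it was set to the dimmest probe above background of the same array (159.2 in wild type hepatocytes), and the fold is then a bound. Over 2-fold, 7 member probes were higher and 1 lower in Alb-Cre+/+ EpCAM+ cells, beside 16.3% and 16.7% of all probes compared; 8 were higher and 1 lower in Alb-Cre+/- EpCAM+ cells (14.6% and 14.8% of all); 8 and 1 in Mx1-Cre EpCAM+ cells (14.8% and 14.7%); and 7 and 1 in DDC EpCAM+ cells (14.7% and 14.8%). The 4 comparisons share the wild type array. The lower bound for Cldn4 was 25.3-fold higher in Alb-Cre+/+, 35.0-fold in Alb-Cre+/-, 15.3-fold in Mx1-Cre and 88.7-fold in DDC EpCAM+ cells, and for Cldn6, in that order of arrays, 24.7-fold, 16.9-fold, 12.1-fold and 20.8-fold. Ocln was the member that differed in its call: its lower bound passed 2-fold on the Alb-Cre+/- array (2.07) and the Mx1-Cre array (3.75), but was 1.73-fold in Alb-Cre+/+ and 1.97-fold in DDC EpCAM+ cells.

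The probe called lower was Cldn1 in each of these 4, by 2.30-fold in Alb-Cre+/- and by at least 2.30-fold, 2.38-fold and 2.48-fold in Alb-Cre+/+, Mx1-Cre and DDC EpCAM+ cells. Scaling each array to a common median in place of quantile normalization ended the over 2-fold call of Cldn3 in all 4, of Cldn1 in Alb-Cre+/+, Ocln in Alb-Cre+/- and Cldn7 in DDC EpCAM+ cells, and put Cldn12 over 2-fold lower in the 3 mutants. Under that scaling 30.9% of the probes past 2-fold in Alb-Cre+/- EpCAM+ cells were higher (49.6% otherwise), 28.0% in Mx1-Cre (50.2%) and 28.4% in DDC EpCAM+ cells (49.8%).

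Hepatocytes of the Alb-Cre+/+ genotype were compared with wild type hepatocytes next. Cldn4 alone of the members passed 2-fold, at least 4.73-fold higher in the mutant, and no member was over 2-fold lower, beside 7.8% of all probes higher and 8.47% lower (19.7% of those past 2-fold were higher with median scaling, against 47.9%). Cldn1 was 1.90-fold higher in mutant than in wild type hepatocytes, with a 95% bead interval of 1.52 to 2.38. Cldn3 was 1.58-fold lower in the mutant (1.32 to 1.88), and F11r (1.04-fold lower) and Cldn12 (1.10-fold lower) had bead intervals that included no change. Cldn4, Cldn6, Cldn7 and Ocln were all above background in mutant but not in wild type hepatocytes, as were Krt19, Krt7, Cftr and Tspan8 of the cholangiocyte list. Over all probes, 15872 were above background in mutant hepatocytes, 11429 in wild type hepatocytes and 10733 in both. The dimmest probe above background read 114.8 on the mutant and 159.2 on the wild type array. Other marker sums were also higher in mutant hepatocytes: endothelial (18010 against 4158), macrophage (7853 against 2357), and stellate and fibroblast (13730 against 3423). Those of hepatocyte and erythroid markers were lower. Among the erythroid markers Alas2 was lower (158.2 against 2416). Hba-a1 ran the other way (285.0 against 145.0, the last not above background).

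Within the Alb-Cre+/+ genotype, EpCAM+ cells over hepatocytes gave 7 member probes over 2-fold higher (12.7% of all probes) and 1 lower (11.5%), and with median scaling 67.6% of the probes past 2-fold were higher, against 52.6% otherwise. The largest of these folds was that of Cldn6, 13.6 in favour of EpCAM+ cells (bead interval 11.4 to 16.3), followed by Cldn4 at 5.35-fold (4.48 to 6.39), Cldn3 at 4.04-fold and Cldn7 at 4.03-fold. Cldn1 was at least 4.38-fold lower. Expressed as a share, the hepatocyte signal was 7.34% of the EpCAM+ signal for Cldn6, 18.7% for Cldn4, 24.8% for Cldn7 and for Cldn3, 30.1% and 31.9% at the probes of Cldn2, and 39.1% for F11r. Over the cholangiocyte markers it was 10.9% for Cftr, 11.6% for Krt7, 15.7% for Krt19, 15.5% and 30.8% for the 2 Sox9 probes, 32.8% for Tspan8, and 49.2%, 83% and 87% for the 3 Muc1 probes. The shares of Cldn2, Cldn3, Cldn4 and Cldn7 lay between those of Cftr (10.9%) and Tspan8 (32.8%), and that of Cldn6 below them. F11r lay within the range of the markers only when Muc1 was included. The Muc1 probes at 83% and 87% were dim (285.7 and 127.7 in the hepatocytes). The shares of Ocln (94.3%) and Cldn12 (142%) lay above all these markers. The share was not computed over all probes. In mixed RNA fewer cells of a type and less RNA per cell cannot be told apart. Whether ductal or other non-parenchymal cells contributed to the mutant hepatocyte array was not tested.

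**Figure D3:**
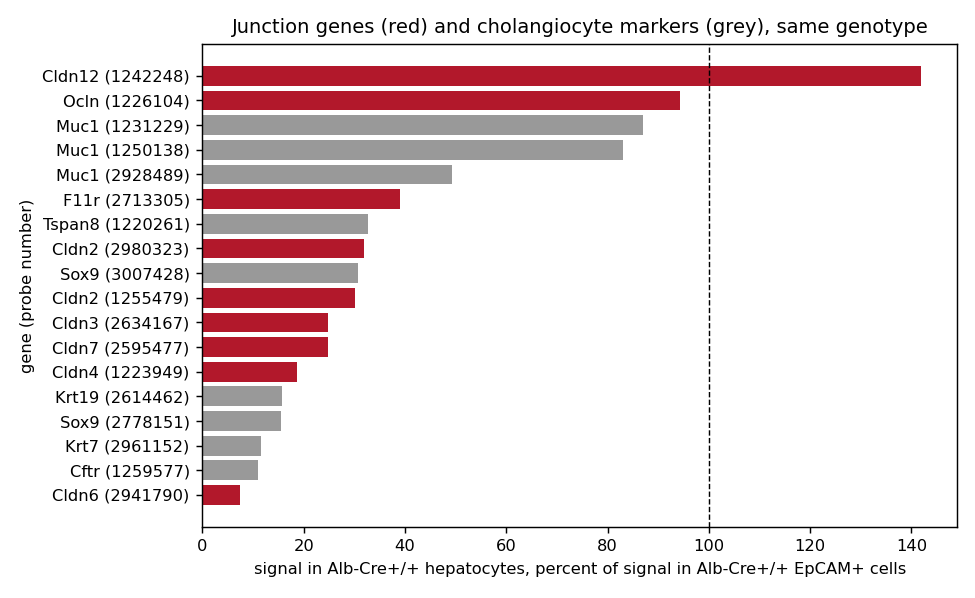
Signal in Alb-Cre+/+ hepatocytes as a percent of the signal in Alb-Cre+/+ EpCAM+ cells, 1 array each, for member probes (red) and cholangiocyte markers (grey); the dashed line is equal signal. Cldn6 (7.34%) is the lowest bar and Cldn12 (142%) the highest.

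The study set its genetic model against the DDC diet, and Cldn4 was the member that separated them in each mutant. It was 3.50-fold lower in Alb-Cre+/+ (bead interval 2.99 to 4.10), 2.54-fold lower in Alb-Cre+/- (2.16 to 2.98) and 5.79-fold lower in Mx1-Cre EpCAM+ cells (4.99 to 6.71) than in DDC EpCAM+ cells. In Alb-Cre+/+ EpCAM+ cells 1 member, Cldn7, was over 2-fold higher than after DDC (2.06-fold, 1.66 to 2.57), beside 6.98% of all probes, and 2 were over 2-fold lower, Cldn4 and F11r, beside 6.83%. F11r stood at the threshold itself (2.0-fold, 1.65 to 2.43) and was not past it with median scaling. In Alb-Cre+/- EpCAM+ cells 0 members were higher and 1 lower (4.74% and 3.92% of all), and in Mx1-Cre EpCAM+ cells 0 were higher and 1 lower (4.12% and 4.2%). Median scaling moved the share of higher probes among those past 2-fold from 50.5% to 82.8% for Alb-Cre+/+ and from 54.7% to 70.2% for Alb-Cre+/- over DDC, while Cldn4 remained over 2-fold lower in each mutant.

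Among the other members, Cldn3 stayed within 1.35-fold of DDC in every mutant, and the rest of those measured reached larger folds in at least 1 mutant. Cldn3 was 1.13-fold, 1.35-fold and 1.34-fold lower in Alb-Cre+/+, Alb-Cre+/- and Mx1-Cre EpCAM+ cells than after DDC, and the Cldn2 probes were 1.12-fold to 1.70-fold lower. F11r (2.0-fold, 1.84-fold and 1.31-fold) and Cldn12 (1.59-fold, 1.25-fold and 1.42-fold) were below DDC in each mutant as well. Cldn7 lay on the other side in each mutant, at 2.06-fold, 1.53-fold and 1.90-fold higher. Before normalization Cldn7 read 523.2, 605.5 and 837.0 in these mutants, against 652.0 after DDC. Without normalization Cldn7 thus lay below DDC in the Alb-Cre arrays. The mean signal over all probes was then 308.7 on the Alb-Cre+/+ and 671.7 on the DDC array. With quantile normalization, median scaling and normexp alike, Cldn7 was over 2-fold higher in Alb-Cre+/+ than in DDC EpCAM+ cells. The study reported Cldn7 as lower in Alb-Cre+/+ than in DDC EpCAM+ cells, the direction of the signals before normalization. It reported Cldn4 as lower too, and before normalization Cldn4 read 2198.3 in Alb-Cre+/+ and 17407.0 in DDC EpCAM+ cells. For Ocln the Mx1-Cre array was 1.91-fold above DDC (1.60 to 2.28), while its bead intervals in the Alb-Cre arrays included no change. Relative to DDC, Cldn6 was 1.19-fold higher in the Alb-Cre+/+, 1.23-fold lower in the Alb-Cre+/- and 1.71-fold lower in the Mx1-Cre array. These 3 comparisons share the DDC array, and with 1 array a condition a difference of mice cannot be told apart from one of models. The arrays also differed in other cells: the summed signal of 10 endothelial markers was 25530, 34310 and 18170 in Alb-Cre+/+, Alb-Cre+/- and Mx1-Cre EpCAM+ cells, against 2891 in DDC EpCAM+ cells (7 of 10 markers above background, with Stab2, Cdh5 and Lyve1 not). The stellate and fibroblast markers summed to 6996, 18820 and 10470 in those mutants, against 1629 after DDC. Reln gave most of that sum in the mutants, with 4066, 15520 and 9429, against 316.3 after DDC. Dcn, also on that list, read 2001, 2507 and 370.2, against 700.1, so its Mx1-Cre signal lay below DDC. The hepatocyte markers summed to 52580, 62140 and 45680, against 20150. The part of these sums in the lower Cldn4 signal was not tested. The cholangiocyte markers summed to 35590, 52850 and 58860 in the same mutants, against 45270 after DDC. For the macrophage markers 1 mutant stood apart, with 7800 in Alb-Cre+/- EpCAM+ cells. They summed to 1781, 1051 and 1313 in Alb-Cre+/+, Mx1-Cre and DDC EpCAM+ cells.

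**Figure D4:**
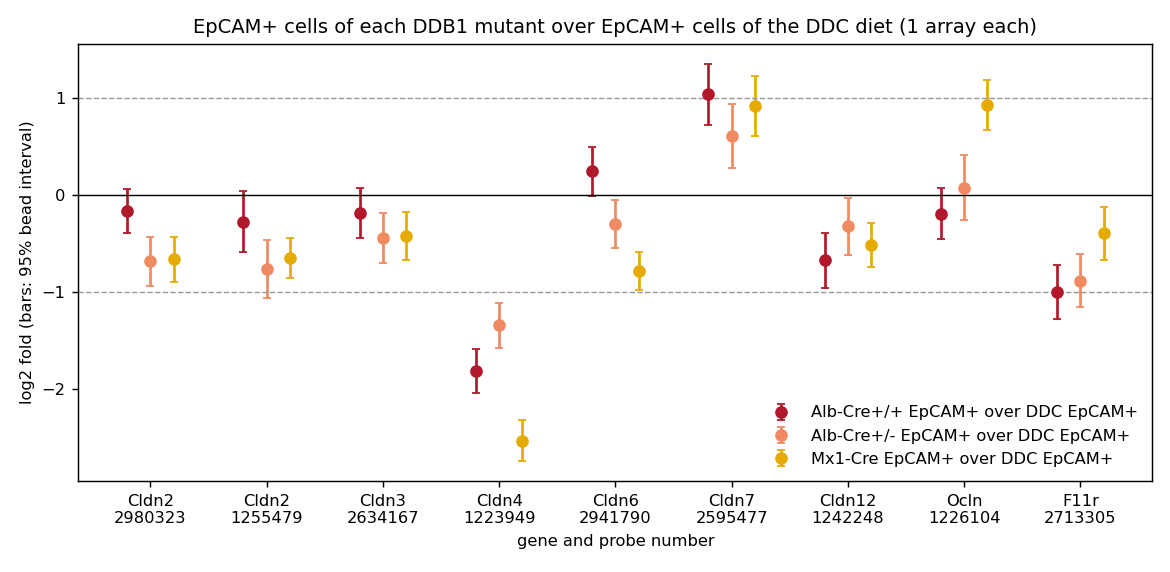
Log2 fold of each mutant's EpCAM+ cells over DDC EpCAM+ cells for the 9 member probes measured on all 4 arrays; bars are 95% intervals from bead error, and dashed lines mark 2-fold. Cldn4 lies below -1 in each mutant and Cldn7 above 0 in each.

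Other genes of the junction were counted from lists chosen by function, to be read beside the 10.1% of all probes called higher and 10.7% called lower. Of the other claudins 7 probes were tested: Cldn23 was higher in EpCAM+ cells by 2.36 on the log2 scale (adjusted p = 0.009) and Cldn14 lower (-1.10, adjusted p = 0.015), which at 1 of 7 each way is near those shares. Cldn23 entered the test through the EpCAM+ arrays alone and Cldn14 through the hepatocyte arrays alone. Cldn5, the endothelial claudin, was not called (0.09, adjusted p = 0.94). Cldn9, next to Cldn6 in the genome, was not called either (-0.42, adjusted p = 0.42), and read 247.3, 189.2, 160.3 and 153.5 in the EpCAM+ arrays, against 169.5 and 357.2 in mutant and wild type hepatocytes. The neighbours Cldn6 and Cldn9 thus differed in their calls, although that difference was not itself tested.

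Of 11 probes for other tight junction membrane proteins, 2 were called higher and 0 lower (3 and 0 at an unadjusted p under 0.05), for Ildr1 (1.68, adjusted p = 0.048), which belongs to the tricellular junction, and Marveld3 (1.66, adjusted p = 0.029), a relative of occludin. The 2 other Ildr1 probes tested were not called, with differences of 1.93 and -0.35. Of 19 probes for plaque and polarity proteins, 9 were higher and 0 lower (12 and 0 at an unadjusted p under 0.05). Of these 9, the Magi1 probes were above background on every array. The others, like those called for Ildr1 and Marveld3, entered the test through the EpCAM+ arrays alone, so their count is no support by itself. The 9 included Rab25, a GTPase of apical recycling (3.82, adjusted p = 0.0042), Amotl1, an angiomotin-like polarity protein (2.90, adjusted p = 0.011), the scaffold Magi1 (1.61, adjusted p = 0.023) and the Crumbs complex scaffold Patj (1.60, adjusted p = 0.016).

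Adherens junction, desmosome and gap junction genes gave 10 of 23 probes higher and 4 lower, and the gap junction genes were called in both directions. Gjb2, the hepatocyte connexin 26, was lower (-4.17, adjusted p = 0.0011), whereas Gja1, connexin 43, was higher (3.80, adjusted p = 0.045), as were the adhesion molecule Nectin2 (2.27, adjusted p = 0.0019) and the desmosomal plakophilin Pkp3 (2.04, adjusted p = 0.006). Of 9 probes for transcription factors linked to claudin genes, 2 were higher and 1 lower, the lower count near the share over all probes: the epithelial factors Klf5 (2.86, adjusted p = 0.01) and Elf3 (2.41, adjusted p = 0.039), and the hepatocyte factor Hnf4a (-1.62, adjusted p = 0.016). Of 6 probes for surface partners of claudins, the tetraspanins Tspan8 (4.51, adjusted p = 0.015) and Cd151 (1.48, adjusted p = 0.035) were higher. The called probes of Gja1, Klf5, Elf3 and Tspan8 entered the test through the EpCAM+ arrays alone, so their calls are no support by themselves. Those of Gjb1 and Nectin1, among the 4 lower, entered through the hepatocyte arrays alone. Further probes were tested but not called for Cd151 (0.74 and 0.80), Elf3 (0.73) and Patj (0.37 and 0.75). Without the wild type hepatocyte array 2 of these 17 called genes kept their call, Cldn14 and Nectin2, and 15 did not. Cldn14 in turn was not called without the Alb-Cre+/- EpCAM+ array (adjusted p = 0.051), with median scaling (adjusted p = 0.16) or with probes above background on at least 1 array (adjusted p = 0.062). Between 3 and 7 lost it without any 1 of the other arrays, among them Gja1, Elf3, Ildr1, Magi1, Cd151 and Marveld3.

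Likeness to the 3 members with the largest increases was measured as Pearson's r of log2 signals over the 6 arrays, as a description, among about 12420 probes above background on at least 4 arrays. Closest to Cldn4 were Rab11fip5 (0.9979), Hmgn3 (0.9976) and Traf3ip2 (0.9971), closest to Cldn6 were Fam117b (0.9986), Snx6 (0.9972) and Nfkbid (0.9969), and closest to Cldn7 were Alcam (0.9961), Myo9b (0.9949) and Enkd1 (0.9929). Among the members, r was 0.95 between Cldn4 and Cldn6 and 0.93 between Cldn6 and Cldn7, and -0.789 between Cldn7 and Cldn12. All points share the split into 4 EpCAM+ and 2 hepatocyte arrays.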

How the data were processed

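Total RNA of 6 samples was hybridised to Illumina mouse whole-genome arrays, all on 1 chip per the labels. The authors summarised beads in GenomeStudio and deposited, for 45281 probes, the intensity before normalization, its bead standard error, the count of beads and a detection p-value, and a second intensity table that they quantile normalized over the 6 arrays with normalize.quantiles. That procedure forces 1 distribution on all arrays. The normalized intensities were taken to log2 after a floor of 114.8 and fitted with limma 3.58.1 (lmFit, eBayes with trend) in R 4.3.3; other steps used Python 3.11.15 with pandas 2.3.3. The fit was tested on simulated data. Of all probes 34885 have 1 symbol in the platform annotation, 18 several and 10378 none. Named genes were every member plus, of each other list, at most 4 called genes by size of change, with Epcam, Ddb1, Cldn5 and Cldn9. The members and lists were chosen with earlier results of these data known. Groups came from the labels; with 1 array a condition, folds over 2, the study's threshold, carry no test. Alternatives covered normalization, background correction (normexp, offset 16), detection p under 0.01, floor, filter, array weights and leaving out each array.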

Additional observations from a re-analysis of the deposited data

Results flagged for a closer look

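Among 31 probes of the members and named genes, 3 had 1 EpCAM+ array far from the other 3 by Dixon's ratio, the gap to the nearest array over the whole range. Chance marks about 1 in 20, or 1.6 here. For Cldn14 the Alb-Cre+/+ array stood apart with a ratio of 0.985 (127.5, with 115.0, 112.7 and 103.7 on the Alb-Cre+/-, Mx1-Cre and DDC arrays, the last 2 not above background and all but the first near the floor). For Magi1 the Alb-Cre+/+ array was low, at 1088 with 2546, 2365 and 2362 on the others (ratio 0.912). For Cldn1 the Alb-Cre+/- array, at 119.1, had a ratio of 1.0 because the other 3 lay at the common floor.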

How the results depend on the processing

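No paired analysis was possible because each condition has 1 array and the labels pair none. Over all probes, calls higher in EpCAM+ cells numbered 1382 and calls lower 1474. With a filter on at least 1 array they were 590 and 951, with array weights 679 and 982, and lower calls were 930 with 1 probe a gene. Leaving out each array gave 356 to 1403 higher and 1013 to 2766 lower. The 7 member probes called higher ranged from 2 to 7 with an array left out; with the filter on at least 1 array, 5 were, Cldn4 (adjusted p = 0.073) and Cldn7 (adjusted p = 0.051) being lost; the cause was not tested. That filter also ended 12 of the 17 calls of other named genes, array weights 6, no trend 3 and median scaling 2. The median of all probes was 0.04, and -0.11 with median scaling. Members' log2 differences kept their sign in every alternative run. Those of 3 genes not called changed sign. With an array left out Cldn5 ran from -0.89 to 1.06, Cldn9 from -0.96 to 0.12 and Ddb1 from -0.93 to 0.63, the positive ends of Cldn9 and Ddb1 and the negative end of Cldn5 being without wild type hepatocytes. With median scaling Cldn5 was -0.17 and Ddb1 0.0. Of member probes over 2-fold above wild type hepatocytes, 4 were left in each EpCAM+ array when both signals had to be above background. They were both Cldn2 probes, Cldn3 and F11r. Alb-Cre+/+, Mx1-Cre and DDC had 5 member probes compared each and Alb-Cre+/- 6. Over all probes the counts were 1501 of 9881 in Alb-Cre+/+, 1481 of 10456 in Alb-Cre+/-, 1518 of 10217 in Mx1-Cre and 1571 of 10347 in DDC. For Alb-Cre+/+ hepatocytes 0 of 6 were left, beside 743 of 10733 probes. Under that rule 0 of 5 were over 2-fold lower than in wild type hepatocytes in Alb-Cre+/+, Mx1-Cre and DDC EpCAM+ cells. Of all probes 1957 of 9881, 1891 of 10217 and 2086 of 10347 were. Alb-Cre+/+ EpCAM+ cells compared with hepatocytes of that genotype gave 0 of 9, beside 1503 of 12696 probes. A detection p under 0.01 gave 0 of 10 lower in Alb-Cre+/+ EpCAM+ cells over wild type hepatocytes, beside 2526 of 13618 probes. With normexp, 3 of 10 (Cldn1, Cldn4, Cldn6) were higher in Alb-Cre+/+ over wild type hepatocytes, beside 1613 of 16568 probes. In Mx1-Cre over DDC EpCAM+ cells 2 of 9 (Cldn7, Ocln) were higher, beside 1149 of 18656 probes. With median scaling, 2 of 10 (Cldn1, Cldn12) were lower in Alb-Cre+/- and in Mx1-Cre EpCAM+ cells over wild type hepatocytes. Of all probes 3877 of 17461 and 4463 of 17041 were, so both member counts are near those shares. In Alb-Cre+/+ over DDC EpCAM+ cells 1 of 9 (Cldn4) was lower, beside 845 of 18722 probes. Causes were not tested beyond these. Signals near background limit Cldn1, Cldn7, Cldn8 and Ocln.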

Other observations

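Cldn10, an ion-channel claudin outside the member list and chosen here after its values were seen, read 643.3, 344.9 and 1073 in Alb-Cre+/+, Alb-Cre+/- and Mx1-Cre EpCAM+ cells, against 139.4 in DDC EpCAM+ cells, at its brightest probe. It was not above background in mutant or wild type hepatocytes, and its difference between EpCAM+ cells and hepatocytes was not called (1.89 on the log2 scale). A second Cldn10 probe read 467.3, 177.0 and 713.7 in these mutants, against a signal not above background after DDC. Both probes were thus higher in each mutant array than in the DDC array, the reverse of Cldn4, and 3 further Cldn10 probes were not above background on any array. DDC was the lowest EpCAM+ array for the endothelial genes Cldn5 and Esam too, while the mutants stood in another order for each gene: Cldn5 read 409.8, 710.4 and 609.1 in the mutants, against 128.5 after DDC, and Esam 1066, 983.3 and 1049, against 247.5. Both genes are on the list of 10 endothelial markers whose sum was lowest after DDC, so that sum is no independent reading of them.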
